A study of Rattus norvegicus with 12 samples.

Results

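Oxidative phosphorylation genes were followed in rat Schwann cells grown with 3 kinds of macrophage or alone. Genes were chosen by name: those of the nuclear genome whose symbol begins with Nduf, Uqcr, Cox4 to Cox8 or Atp5 or is Sdha, Sdhb, Sdhc or Sdhd, and those of the mitochondrial chromosome named for the subunits of complexes I, IV and V. Of 106 genes matched by name, 96 had a count in all 12 libraries and form the set described here, out of 30957 genes in the table. They comprise 84 nuclear and 12 mitochondrial genes, and 94 of them passed the filter on low counts and were tested among 12360 genes. The choice used names and the presence of counts, and no difference between groups. The 4 groups had 3 libraries each. MiaTAM cultures held Schwann cells with tumour-associated macrophages (TAM) induced by medium of MIA PaCa-2, a human pancreatic cancer line, and BxTAM cultures held them with TAM induced by medium of BxPC-3, another such line. MDM cultures held them with monocyte-derived macrophages, and the fourth group was Schwann cells alone, without treatment. Libraries of cells alone are titled Rsc96, the name of an immortalised rat Schwann cell line, while their description entries read HSC96, and the labels do not say which name holds. MDM libraries are titled PBMC and, like cells alone, have the treatment entry untreated, so their group was taken from the source name. The labels give rat as the organism of every library. The species of the macrophages, the duration of co-culture and whether a membrane kept the cells apart are not stated in the labels.

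Oxidative phosphorylation passes electrons from NADH and succinate through complexes I to IV of the inner mitochondrial membrane to oxygen, and complex V (ATP synthase) uses the proton gradient built on the way to make ATP. Complexes I, III, IV and V each combine subunits encoded in the nucleus with subunits encoded in mitochondrial DNA, while complex II is wholly nuclear. Mitochondrial genes are transcribed as long precursors from both strands of the circular chromosome and then cut into messengers, so that messengers from a shared precursor can still differ in level. Genes that overlap were counted one by one here and need not be separate messengers, so counts of mitochondrial genes below are not counts of independent messengers. Schwann cells, the glia of peripheral nerves, use this pathway during differentiation and in supplying axons.

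Library totals ran from 16555215 to 21506669 counts. Levels are CPM (read counts scaled to library size, with TMM factors), or FPKM where genes of different length are compared. Changes are log2 fold changes of 3 libraries against 3, ± SE. The SE comes from the fit over all 12 libraries, so the spread of groups outside a comparison enters it too. A gene was called when its adjusted p in the quasi-likelihood test of edgeR, adjusted over all tested genes by Benjamini-Hochberg, was under 0.05. Whether the 3 libraries of a group are separate cultures is not stated, so p-values cover the spread among these libraries alone and that spread may be technical. Of 26 macrophage markers, 20 averaged under 1 CPM in every group and 4 (Tyrobp, C1qa, Marco and Lst1) were at 0 in every library. Their summed level was 66.9 to 71.2 CPM in MiaTAM, 60.5 to 62.5 in BxTAM and 63.6 to 69.2 in MDM libraries, against 28.2 to 31.4 in Schwann cells alone. This moved with co-culture in every comparison against cells alone below, and its part in them was not tested. Of 15 Schwann cell markers, 7 averaged under 1 CPM in every group, among them Sox10 and S100b, and Cdh19 was at 0 in every library. The highest marker was Vim, a filament gene not restricted to Schwann cells, at 1644 CPM in MiaTAM, 1688 in BxTAM, 1869 in MDM and 1745 in alone libraries. Of the 9 Schwann cell markers tested, 4 were called higher and 2 lower in MiaTAM against alone. In BxTAM 3 were higher and 2 lower, and in MDM 5 and 2. Their log2 changes ran from -1.17 to 1.725 in MiaTAM, -1.09 to 0.91 in BxTAM and -1.21 to 2.34 in MDM. Over all tested genes, 31.4% were higher and 33.7% lower in MiaTAM, 30.0% and 30.9% in BxTAM, and 32.0% and 33.1% in MDM. In such bulk samples, fewer cells of a type and less RNA per cell cannot be told apart.

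The genes of the mitochondrial chromosome did not move as a unit. In all 3 co-cultures, Mt-co1 and Mt-cox3, which encode catalytic core subunits of complex IV (cytochrome c oxidase), were higher than in Schwann cells alone, and the genes of complex I, of complex V and the remaining core gene of complex IV, Mt-co2, were mostly lower. In MiaTAM against alone, 2 of the 12 mitochondrial genes were higher and 8 lower, where 31.4% of all tested genes were called higher and 33.7% lower. BxTAM against alone gave the same numbers, 2 higher and 8 lower, beside 30.0% and 30.9% of all tested genes. MDM against alone gave 2 higher and 10 lower, beside 32.0% and 33.1%. The median log2 change of the 12 genes was -0.33 in MiaTAM, -0.44 in BxTAM and -0.67 in MDM cultures against alone, where the median over all tested genes lay within 0.0063 of 0. With upper-quartile factors 1 more gene was called higher in BxTAM (Mt-nd2) and in MiaTAM (Mt-nd3), and 1 fewer lower in MDM (Mt-nd2). Without alone library 1, which stands apart for 1 gene described below, these counts were the same.

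**Figure D1:**
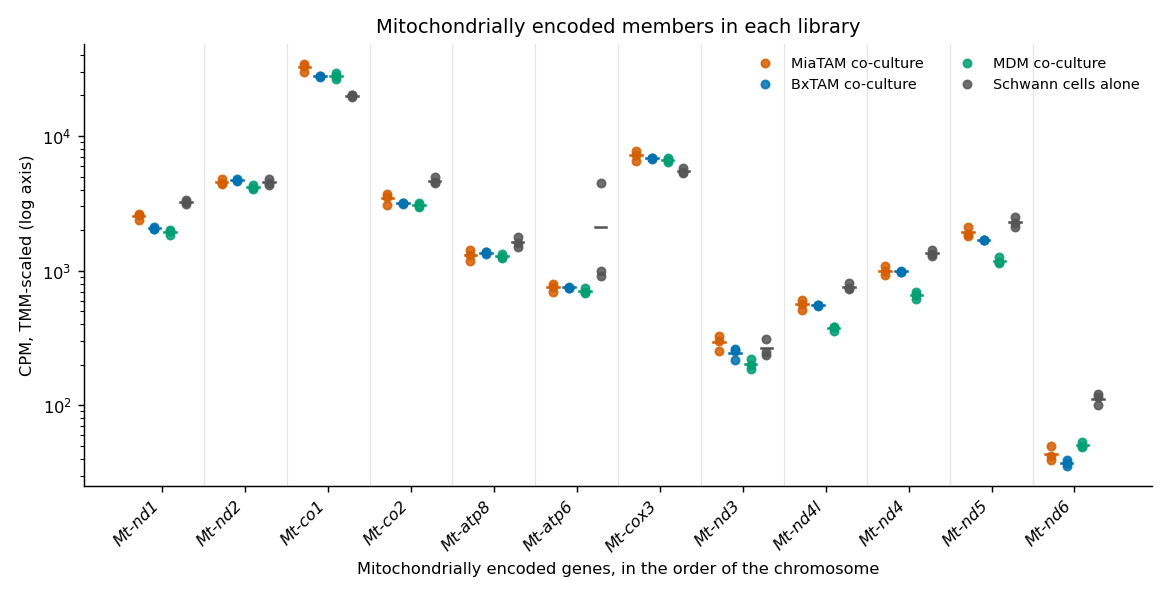
Level of each mitochondrially encoded gene in every library, in CPM on a log axis, with genes in the order of the chromosome; points are libraries and bars are means of 3. Mt-co1 and Mt-cox3 lie higher in the co-cultures than in cells alone, Mt-nd4, Mt-nd4l and Mt-nd5 lie lowest in MDM cultures, and 1 library of cells alone lies far above the others for Mt-atp6.

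Positions below are on build Rnor_6.0. Mt-co1 (chrMT:5323-6867) was the most abundant gene of the set, with 17440 FPKM over all libraries. It had 30060, 32820 and 34200 CPM in MiaTAM, 27880, 27430 and 27920 in BxTAM and 26350, 29130 and 27950 in MDM libraries, against 20180, 19410 and 20190 in alone libraries. Every co-culture library was above every library of cells alone, by 0.70 ± 0.048 (edgeR adjusted p = 7.19e-11) in MiaTAM, 0.48 ± 0.048 (adjusted p = 2.79e-08) in BxTAM and 0.48 ± 0.048 (adjusted p = 2.09e-08) in MDM cultures on the log2 scale. Its share of the counts of the 12 mitochondrial genes averaged 57.8% in MiaTAM, 55.3% in BxTAM and 57.8% in MDM libraries, against 43.0% in cells alone. Mt-cox3 rose less, by 0.38 ± 0.052, 0.31 ± 0.052 and 0.27 ± 0.052 in MiaTAM, BxTAM and MDM cultures (edgeR adjusted p = 1.89e-06, 2.76e-05 and 1.21e-04). Mt-co2, which carries the copper centre that first takes electrons from cytochrome c, went the other way. It had 3088, 3495 and 3735 CPM in MiaTAM, 3178, 3204 and 3106 in BxTAM and 2954, 3186 and 3085 in MDM libraries, against 4558, 4459 and 4964 in cells alone. All co-culture libraries lay below all libraries of cells alone, with changes of -0.44 ± 0.056 in MiaTAM, -0.56 ± 0.056 in BxTAM and -0.60 ± 0.056 in MDM (edgeR adjusted p = 7.85e-07, 2.86e-08 and 8.51e-09). Per length, Mt-co1 stood at 4.17 times Mt-co2 in MiaTAM, 3.89 times in BxTAM and 4.002 times in MDM cultures, against 1.90 times in cells alone.

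The 7 mitochondrial genes of complex I, which form its proton-pumping membrane arm, were lower in co-culture or not called. Mt-nd1, the subunit next to the ubiquinone site, had 2385, 2604 and 2625 CPM in MiaTAM, 2100, 2055 and 2055 in BxTAM and 1835, 1978 and 2001 in MDM libraries, against 3244, 3109 and 3353 in alone libraries. No co-culture library reached the lowest library of cells alone, and the falls were -0.35 ± 0.045 in MiaTAM, -0.64 ± 0.045 in BxTAM and -0.74 ± 0.045 in MDM (edgeR adjusted p = 9.03e-07, 1.33e-10 and 1.29e-11). Mt-nd4 (chrMT:10160-11537), one of the antiporter-like subunits, had 924, 986 and 1076 CPM in MiaTAM, 984, 984 and 996 in BxTAM and 619, 659 and 698 in MDM libraries, against 1339, 1284 and 1414 in alone libraries. The 4 groups fell in a graded order for this gene, with MDM lowest, both TAM cultures between and cells alone highest, and the fall was 1.35-fold in MiaTAM, 1.36-fold in BxTAM and 2.04-fold in MDM. Mt-nd4l, which shares 7 bases with Mt-nd4, changed by -0.44 ± 0.055 in MiaTAM, -0.46 ± 0.055 in BxTAM and -1.03 ± 0.055 in MDM cultures, and the ratio of Mt-nd4 to Mt-nd4l per length was 0.381 to 0.386 in all 4 groups. Mt-nd5, another antiporter-like subunit, had 1818, 1879 and 2108 CPM in MiaTAM, 1694, 1694 and 1703 in BxTAM and 1134, 1163 and 1260 in MDM libraries, against 2257, 2110 and 2487 in alone libraries. It fell, with log2 changes of -0.24 ± 0.058 in MiaTAM, -0.43 ± 0.058 in BxTAM and -0.95 ± 0.058 in MDM cultures (edgeR adjusted p = 0.00113, 1.98e-06 and 1.46e-11).

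Mt-nd6 (chrMT:13543-14061) is the only gene of the 12 encoded on the other strand of the chromosome, and it had the lowest level, 118 FPKM over all libraries. It had 39.0, 42.0 and 50.1 CPM in MiaTAM, 35.6, 39.1 and 37.1 in BxTAM and 49.8, 49.0 and 53.1 in MDM libraries, against 114, 101 and 121 in alone libraries. Among the co-cultures BxTAM had the lowest mean and MDM the highest, and MiaTAM libraries overlapped both. The falls were 2.57-fold in MiaTAM, 3.01-fold in BxTAM and 2.21-fold in MDM (edgeR adjusted p = 2.90e-12, 3.56e-13 and 3.20e-11). Mt-nd6 overlaps Mt-nd5 by 23 bases on the opposite strand, and whether reads were counted by strand is not stated, so reads of that stretch cannot be assigned with certainty. Mt-nd2 and Mt-nd3 changed least. Mt-nd2 had log2 changes of -0.00040 in MiaTAM and 0.051 in BxTAM against alone, neither called, and -0.13 ± 0.045 in MDM (edgeR adjusted p = 0.0161), a call lost without MDM library 1 (adjusted p = 0.0644) or alone library 3 (adjusted p = 0.114). Mt-nd3 fell in MDM, with a log2 change of -0.39 ± 0.094 (edgeR adjusted p = 0.00107). It had 253, 302 and 328 CPM in MiaTAM, 260.3, 254 and 218 in BxTAM and 198, 222 and 187 in MDM, against 236, 249.7 and 310.4 in alone libraries. Its MiaTAM change of 0.15 was not called, but was called as higher without MiaTAM library 1 (0.25, adjusted p = 0.0230) or alone library 3 (0.29, adjusted p = 0.00730).

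The 2 mitochondrial genes of complex V were lower in all co-cultures. Mt-atp6 (chrMT:7919-8599), which encodes the subunit that forms the proton path of ATP synthase, had 691, 760.5 and 802 CPM in MiaTAM, 748, 749 and 753 in BxTAM and 683, 737 and 689 in MDM libraries, against 4453, 914 and 989 in alone libraries. Library 1 of cells alone stood far above the other 11, and of 4950 genes with at least 1000 counts Mt-atp6 was the single one at 3-fold or more above every other library in any library. With all libraries, the changes were -1.496 ± 0.36 in MiaTAM, -1.497 ± 0.36 in BxTAM and -1.59 ± 0.36 in MDM cultures (edgeR adjusted p = 0.00106, 0.00119 and 6.16e-04). Without that library they were -0.33 ± 0.055 in MiaTAM, -0.33 ± 0.055 in BxTAM and -0.43 ± 0.055 in MDM (edgeR adjusted p = 3.51e-05, 3.36e-05 and 1.17e-06). The co-culture libraries lay below cells alone in both fits, and the size of the fall rests on that library. Mt-atp8, a small subunit whose gene overlaps Mt-atp6 by 43 bases, had 1189, 1316 and 1430 CPM in MiaTAM, 1368, 1368 and 1328 in BxTAM and 1231, 1323 and 1269 in MDM, against 1599, 1491 and 1765 in alone libraries. It did not stand apart in alone library 1, and fell, with log2 changes of -0.30 ± 0.059 in MiaTAM, -0.26 ± 0.059 in BxTAM and -0.34 ± 0.059 in MDM (edgeR adjusted p = 1.46e-04, 8.54e-04 and 3.44e-05). Mt-cox3, next on the chromosome and sharing 1 base with Mt-atp6, moved in the opposite direction, as given above.

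Mt-cytb, the mitochondrial subunit of complex III, carries a symbol outside the naming rule and is given for completeness. It fell, with log2 changes of -0.22 ± 0.048 in MiaTAM, -0.37 ± 0.048 in BxTAM and -0.60 ± 0.049 in MDM cultures against alone (edgeR adjusted p = 4.02e-04, 1.19e-06 and 1.04e-09). The mitochondrial chromosome as a whole took 6.15% to 6.95% of counts in MiaTAM, 5.86% to 5.94% in BxTAM and 5.52% to 5.92% in MDM libraries, against 5.03% to 5.54% in alone libraries. A pair of genes on it without a description in the files, at bases 68 to 1025 and 1094 to 2664, moved against most of the others. The first had 2411, 2466 and 2761 CPM in MiaTAM, 2061, 2040 and 2098 in BxTAM and 2880, 3133 and 2786 in MDM, against 847, 809 and 1003 in alone libraries. The second had 2934, 3001 and 3539 CPM in MiaTAM, 3140, 3018 and 3161 in BxTAM and 3662, 4019 and 3462 in MDM, against 773, 732 and 921 in alone libraries. Both were higher in every co-culture library than in cells alone, by 1.22 to 2.20 on the log2 scale. The pair took 0.54% to 0.62% of counts in MiaTAM, 0.51% to 0.53% in BxTAM and 0.62% to 0.70% in MDM libraries. In alone libraries it took 0.16% to 0.19%, and these shares are part of those given for the whole chromosome. The kit selects mRNA, per the labels, and how it takes up RNA of this pair was not tested.

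Between the co-cultures, the mitochondrial genes of complex I other than Mt-nd6 were mostly higher with TAM than with MDM. In MiaTAM against MDM, 8 of the 12 mitochondrial genes were higher and 1 lower, beside 19.8% and 21.1% of all tested genes, and with upper-quartile factors 8 were higher and Mt-nd6, the lower one, was not called. In BxTAM against MDM, 5 were higher and 1 lower, beside 17.4% and 17.3%. Mt-nd4 was 1.51-fold higher in MiaTAM and 1.501-fold higher in BxTAM than in MDM cultures (edgeR adjusted p = 2.08e-08 and 2.91e-08). Mt-nd5 was 1.63-fold higher in MiaTAM and 1.43-fold higher in BxTAM than in MDM (edgeR adjusted p = 7.67e-09 and 7.19e-07). The 3 libraries of each TAM culture lay above all MDM libraries for both genes. Mt-nd6 went down instead in BxTAM, at -0.44 ± 0.081 (adjusted p = 2.27e-04). In MiaTAM its change of -0.21 ± 0.079 (adjusted p = 0.0356) was the single lower call, with libraries that overlapped. That call was lost without MDM library 1 or 3 (adjusted p = 0.0581 and 0.130) or MiaTAM library 1 or 2 (adjusted p = 0.197 and 0.103), and with limma or upper-quartile factors (adjusted p = 0.0565 and 0.0503). In MiaTAM against BxTAM, 5 of 12 were higher and 0 lower by edgeR, beside 11.0% and 13.3% of all tested genes. At an unadjusted p under 0.05, 6 were higher and 0 lower, and DESeq2 and limma also called 0 lower. The 5 became 2 or 3 when BxTAM library 1, 2 or 3 or MiaTAM library 2 or 3 was left out. Among them, Mt-nd1 (0.29 ± 0.045, edgeR adjusted p = 1.42e-04) and Mt-co1 (0.22 ± 0.047, adjusted p = 0.0023) had MiaTAM libraries all above the BxTAM libraries and stayed called without any 1 library. With limma the Mt-co1 difference was not called (adjusted p = 0.0757).

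The 84 nuclear genes showed smaller changes, and the direction depended on the co-culture. In MiaTAM against alone, 36 of 82 tested genes were higher and 12 lower, and in BxTAM against alone 15 were higher and 21 lower. MDM against alone gave 25 higher and 16 lower. Over all tested genes the shares were 31.4% higher and 33.7% lower in MiaTAM, 30.0% and 30.9% in BxTAM, and 32.0% and 33.1% in MDM. The shares of genes called, 58.5% in MiaTAM, 43.9% in BxTAM and 50% in MDM, were below the 65.1%, 60.9% and 65.1% of all tested genes called in either direction. The median nuclear change was 0.12 in MiaTAM, -0.036 in BxTAM and 0.011 in MDM cultures. For all tested genes the median change was -0.0063, 0.001 and -0.0061, and the median absolute change 0.30, 0.26 and 0.30. The scaling bears on these splits. With upper-quartile factors, 45 were higher and 7 lower in MiaTAM, 21 higher and 12 lower in BxTAM, and 32 higher and 12 lower in MDM cultures, so the balance in BxTAM turned from mostly lower to mostly higher. Without MDM library 2 15 genes were higher in MDM, and without alone library 3 13 were lower in BxTAM. Most called changes were below 1.5-fold. At that size or more, 11.1% of all tested genes were called higher and 11.1% lower in MiaTAM, 9.49% and 9.60% in BxTAM, and 11.6% and 11.0% in MDM. The nuclear members past it were Ndufa7 and Atp5d (higher) and Ndufaf4 (lower) in MiaTAM, Ndufaf2 (lower) in BxTAM, and Cox4i2 (higher), Ndufaf2 and Ndufaf4 (lower) in MDM.

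**Figure D2:**
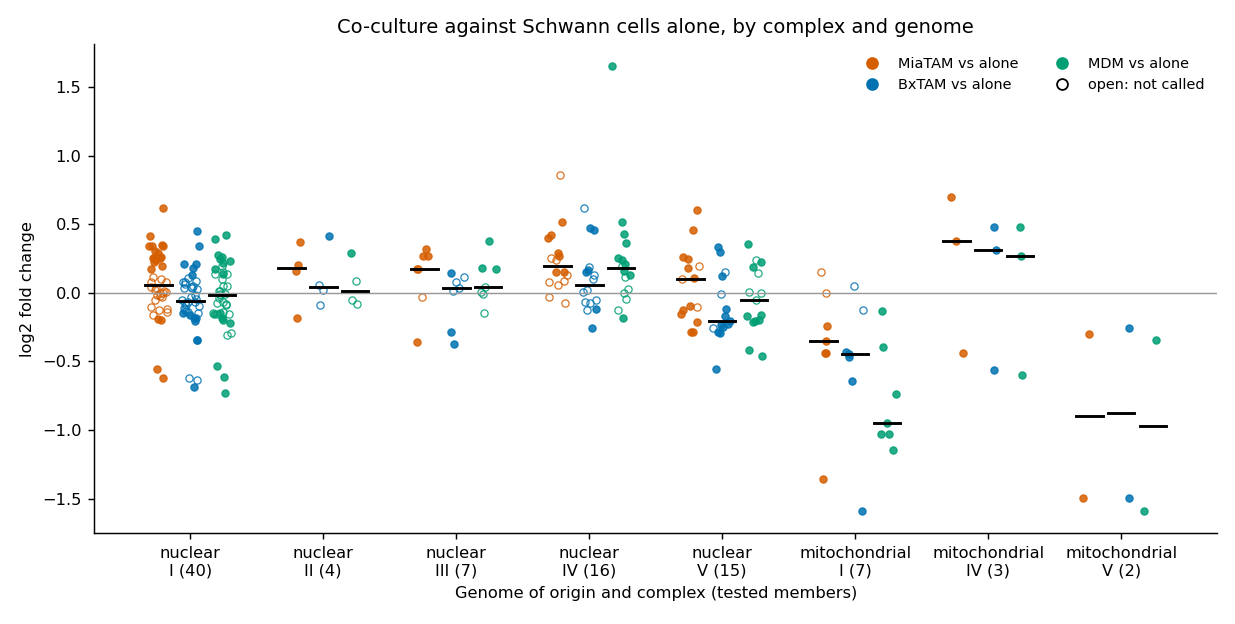
Log2 fold change of every tested member in MiaTAM, BxTAM and MDM cultures against Schwann cells alone, by genome of origin and complex, with the number of tested members in brackets; filled points are called, open points are not, and bars are medians. Nuclear genes lie on both sides of 0, while mitochondrial complex I genes lie mostly below it, with medians of -0.35 in MiaTAM, -0.45 in BxTAM and -0.95 in MDM.

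Nuclear complex I genes, 30 subunits, 8 assembly or accessory genes and 2 further copies, were the largest group. Of all 40, 16 were higher and 4 lower in MiaTAM, 6 higher and 8 lower in BxTAM, and 9 higher and 8 lower in MDM cultures against alone. Of all tested genes, 31.4% were higher and 33.7% lower in MiaTAM, 30.0% and 30.9% in BxTAM, and 32.0% and 33.1% in MDM, so the counts in BxTAM and MDM lie below those shares in both directions. Ndufa7, a small accessory subunit of the matrix arm (chr7:18683553-18696330), changed most upward. It had 31.3, 33.2 and 29.1 CPM in MiaTAM, 28.8, 29.6 and 25.2 in BxTAM and 28.4, 27.4 and 25.9 in MDM libraries, against 19.1, 21.8 and 20.0 in alone libraries. All co-culture libraries were above those of cells alone, by 1.53-fold in MiaTAM, 1.37-fold in BxTAM and 1.34-fold in MDM (edgeR adjusted p = 6.01e-07, 3.95e-05 and 8.14e-05). Ndufa5, another accessory subunit of the matrix arm (chr4:51590413-51598771), was the subunit that fell most. It had 24.1, 24.8 and 25.4 CPM in MiaTAM, 23.3, 24.4 and 19.0 in BxTAM and 18.9, 19.6 and 20.0 in MDM, against 26.1, 27.8 and 30.8 in alone libraries. The fall was -0.35 ± 0.083 in BxTAM and -0.53 ± 0.083 in MDM (edgeR adjusted p = 0.00119 and 1.17e-05), and -0.19 ± 0.082 in MiaTAM (adjusted p = 0.0479). The MiaTAM call did not hold with upper-quartile factors (-0.12, adjusted p = 0.227), nor without MiaTAM library 1, 2 or 3 or alone library 2 or 3 (adjusted p from 0.0625 to 0.289), nor with DESeq2, its size factors, the replicate block or 2 groups alone (adjusted p from 0.0556 to 0.0793).

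Among the membrane-arm subunits of complex I, Ndufb9, Ndufb10 and Ndufc1 were called higher in MiaTAM. Ndufb10, the nuclear complex I subunit with the highest level (128 FPKM over all libraries), had 99.7, 99.8 and 106 CPM in MiaTAM, against 74.1, 81.4 and 83.6 in alone libraries, a rise of 0.35 ± 0.050 (edgeR adjusted p = 3.62e-06), with no overlap. Its levels of 81.7 ± 3.73 CPM in BxTAM and 85.7 ± 3.19 in MDM cultures (SD, n = 3) were not called against cells alone. The MDM change was called without alone library 3 (0.14, adjusted p = 0.0276) and with upper-quartile factors (adjusted p = 0.00774). Ndufb9 likewise rose in MiaTAM, by 0.29 ± 0.061 (adjusted p = 2.58e-04), while its changes in BxTAM and MDM were 0.026 and -0.076 and were not called. Ndufc1 was 0.34 ± 0.14 in MiaTAM (adjusted p = 0.0423), a call lost without MiaTAM library 2 (0.22, adjusted p = 0.226) or alone library 1 or 3 (adjusted p = 0.134 and 0.0721) and with DESeq2 (adjusted p = 0.0862). Ndufs1, the largest iron-sulphur subunit, fell in MDM, with a log2 change of -0.15 ± 0.040 (adjusted p = 0.00295), a call that upper-quartile factors removed (adjusted p = 0.0551). It had 280, 266 and 285 CPM in MiaTAM, 292, 299 and 289 in BxTAM and 265, 254 and 247 in MDM, against 279, 276 and 292 in alone libraries.

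Of the 8 assembly or accessory genes of complex I, 3 were lower in MiaTAM, 2 in BxTAM and 2 in MDM against alone, and 1 was higher in MiaTAM (Ndufaf6) and 1 in MDM (Atp5sl). Beside them, 31.4% of all tested genes were higher and 33.7% lower in MiaTAM, 30.0% and 30.9% in BxTAM, and 32.0% and 33.1% in MDM. The counts of these 8 genes lie near or below those shares. Ndufaf4, which helps build the matrix arm, had 16.1, 11.0 and 12.8 CPM in MiaTAM, 14.6, 17.0 and 17.1 in BxTAM and 14.1, 11.3 and 11.7 in MDM libraries, against 20.2, 19.1 and 22.4 in alone libraries. It fell 1.54-fold in MiaTAM and 1.66-fold in MDM (edgeR adjusted p = 6.57e-05 and 9.66e-06), and 1.27-fold in BxTAM (adjusted p = 0.0103), where the call was lost without BxTAM library 1 (adjusted p = 0.0629) or alone library 3 (adjusted p = 0.0656). Ndufaf2, a chaperone of late assembly, had 4.22, 4.64 and 4.71 CPM in MiaTAM, 3.86, 4.20 and 4.34 in BxTAM and 3.98, 4.54 and 4.48 in MDM, against 6.31, 5.66 and 7.98 in alone libraries. All 9 co-culture libraries were below those of cells alone, with falls of -0.56 ± 0.13 in MiaTAM, -0.69 ± 0.13 in BxTAM and -0.61 ± 0.13 in MDM (edgeR adjusted p = 0.00101, 1.73e-04 and 3.94e-04). Atp5sl carries an ATP synthase name but is known as a factor for the membrane arm of complex I. It rose in MDM, where it had 23.0, 23.6 and 23.0 CPM, against 19.8, 17.4 and 15.9 in alone libraries (0.39 ± 0.087, adjusted p = 5.36e-04), and its changes in MiaTAM and BxTAM of 0.080 and 0.090 were not called. Ndufaf6 was 0.23 ± 0.089 in MiaTAM (adjusted p = 0.0297), a call lost without MiaTAM library 1 or 2 or alone library 3 (adjusted p = 0.0659, 0.0641 and 0.0800), with DESeq2 (adjusted p = 0.0875) and with no filter (adjusted p = 0.0565). Ndufaf5, which modifies a matrix-arm subunit, was called in no comparison, with 15.1 ± 1.15 CPM in MiaTAM, 15.4 ± 0.344 in BxTAM, 14.8 ± 1.11 in MDM and 16.3 ± 1.20 in alone libraries (SD, n = 3).

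Complex II, succinate dehydrogenase, has 4 genes that are also part of the TCA cycle. Sdha, the flavoprotein that oxidises succinate (chr1:31545631-31570601), had 109, 109 and 106 CPM in MiaTAM, 115, 111 and 108 in BxTAM and 102, 102 and 104 in MDM libraries, against 87.3, 83.3 and 80.7 in alone libraries. It was higher in every co-culture library, by 1.29-fold, 1.33-fold and 1.23-fold in MiaTAM, BxTAM and MDM (edgeR adjusted p = 1.19e-07, 2.64e-08 and 2.60e-06). In MiaTAM, Sdhb, the iron-sulphur subunit, and Sdhc, a membrane anchor, rose by 0.20 ± 0.043 and 0.16 ± 0.038 (adjusted p = 3.80e-04 and 0.00103), and the second anchor, Sdhd, fell, with a log2 change of -0.18 ± 0.047 (adjusted p = 0.00216). In BxTAM and MDM, Sdhb was 0.061 and 0.086, Sdhc 0.021 and -0.051, and Sdhd -0.086 and -0.083, none of them called. With upper-quartile factors Sdhb was called higher in both (adjusted p = 0.0251 and 0.0062). Sdhd had 86.6, 81.0 and 75.5 CPM in MiaTAM, 87.9, 85.8 and 86.1 in BxTAM and 86.4, 89.5 and 84.5 in MDM, against 94.1, 89.8 and 92.0 in alone libraries.

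In complex III, which passes electrons from ubiquinol to cytochrome c, 4 of 7 nuclear genes were higher and 1 lower in MiaTAM, 1 higher and 2 lower in BxTAM, and 3 higher and 0 lower in MDM against alone, where 0 were lower at an unadjusted p under 0.05 too. The shares over all tested genes are those given for complex I. Cyc1, the cytochrome c1 gene of this complex, has a symbol outside the naming rule and is not in these counts. It was called lower in BxTAM (-0.12 ± 0.046) and MDM (-0.12 ± 0.046) against alone (edgeR adjusted p = 0.0258 and 0.0249). In MiaTAM it was called higher (0.11 ± 0.046, adjusted p = 0.0499), with libraries that overlapped. Its calls were not followed through the alternatives. Uqcrfs1, the Rieske iron-sulphur protein (chr17:35677984-35682259), had 141, 151 and 152 CPM in MiaTAM, 138, 136 and 132 in BxTAM and 160.2, 165 and 154 in MDM libraries, against 117, 121 and 129 in alone libraries. All co-culture libraries were above cells alone, and MDM cultures held the highest levels. The rises were 0.27 ± 0.045 in MiaTAM, 0.14 ± 0.045 in BxTAM and 0.38 ± 0.045 in MDM (edgeR adjusted p = 2.46e-05, 0.00945 and 2.75e-07). Uqcrc1, a core subunit, rose in MiaTAM by 0.27 ± 0.046 (adjusted p = 3.63e-05) and was 0.033 and 0.042 in BxTAM and MDM, not called. The small subunit gene Uqcr10 on chromosome 14 rose in MiaTAM by 0.32 ± 0.068 (adjusted p = 3.61e-04). Uqcrh, the hinge protein and the most abundant nuclear gene of the complex at 184 FPKM, was called higher in MiaTAM (0.18 ± 0.057) and MDM (0.18 ± 0.057), with libraries that overlapped those of cells alone. The MiaTAM call was lost when library 3 of that group was left out (adjusted p = 0.0604), and the MDM call when its library 2 was (adjusted p = 0.0634). Uqcrb, a small subunit read at low counts, had 6.21, 5.42 and 5.80 CPM in MiaTAM, 6.12, 5.63 and 5.49 in BxTAM and 7.15, 7.55 and 5.69 in MDM, against 6.59, 7.95 and 7.77 in alone libraries. It was lower in MiaTAM (-0.36 ± 0.12) and BxTAM (-0.37 ± 0.12), calls that were lost without alone library 2 (adjusted p = 0.0729 and 0.0599), and the MiaTAM call also without alone library 3 or MiaTAM library 2 (adjusted p = 0.0542 and 0.0520).

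Complex IV was the nuclear complex with the highest share of rises in MDM cultures. Of its 16 nuclear genes, 9 were higher and 1 lower there, against 7 higher and 0 lower in MiaTAM (0 also at an unadjusted p under 0.05) and 4 higher and 2 lower in BxTAM. These 16 include 2 further copies, of Cox6b1 and Cox7a2, both called higher in MDM and in MiaTAM and 1 of them in BxTAM. Over all tested genes, 32.0% were higher and 33.1% lower in MDM, 31.4% and 33.7% in MiaTAM, and 30.0% and 30.9% in BxTAM. Cox7a2l, known as a factor that joins complexes III and IV into supercomplexes (chr6:6695827-6709783), had 133, 144 and 138 CPM in MiaTAM, 129, 137 and 132 in BxTAM and 135, 145 and 134 in MDM libraries, against 95.2, 96.5 and 98.3 in alone libraries. The co-culture libraries formed one range well above cells alone, with rises of 1.43-fold, 1.37-fold and 1.43-fold in MiaTAM, BxTAM and MDM (edgeR adjusted p = 2.08e-09, 1.61e-08 and 2.08e-09). Cox6a1, the nuclear gene of the complex with the highest level (344 FPKM), had 215, 253 and 225 CPM in MiaTAM, 173, 164 and 158 in BxTAM and 182, 198 and 182 in MDM, against 158, 171 and 189 in alone libraries. The MiaTAM libraries lay above cells alone, by 0.42 ± 0.061 (edgeR adjusted p = 5.01e-06). The changes of -0.066 in BxTAM and 0.12 in MDM were not called, but the MDM one was without alone library 3 (0.19, adjusted p = 0.0122) and with upper-quartile factors (adjusted p = 0.0179). Cox8a, another small structural subunit, rose by 0.40 ± 0.070 in MiaTAM and 0.43 ± 0.070 in MDM (adjusted p = 4.36e-05 and 2.10e-05). In BxTAM its change of 0.17 ± 0.071 (adjusted p = 0.0464) was lost without BxTAM library 1 (0.063, adjusted p = 0.425) or alone library 2 or 3 (adjusted p = 0.0711 and 0.106) and with limma (adjusted p = 0.0907).

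Cytochrome oxidase has alternative subunits whose choice is known to depend on oxygen and tissue. Of the pair for subunit 4, Cox4i1 is the general form and Cox4i2 the form known from lung and from low oxygen. Cox4i2 stood near the detection limit, with 0.626, 0.602 and 0.542 CPM in MiaTAM, 0.429, 0.690 and 0.385 in BxTAM and 1.09, 0.795 and 1.17 in MDM, against 0.455, 0.255 and 0.266 in alone libraries. The MDM rise of 1.65 ± 0.34 was called (edgeR adjusted p = 2.49e-04), and the changes of 0.86 ± 0.39 in MiaTAM and 0.62 ± 0.40 in BxTAM were not; without alone library 1 the MiaTAM one was (1.17, adjusted p = 0.0319), as it was with limma and with upper-quartile factors (adjusted p = 0.0259 and 0.0393). Per length it was 0.00224 of Cox4i1 in MiaTAM, 0.00219 in BxTAM and 0.00396 in MDM, against 0.00138 in cells alone, so nearly all of the pair was Cox4i1 in every group. Cox4i1 had 183 ± 7.79 CPM in MiaTAM, 158 ± 4.41 in BxTAM and 179.7 ± 8.14 in MDM, against 164 ± 1.23 in alone libraries (SD, n = 3), a call of 0.16 ± 0.042 in MiaTAM (adjusted p = 0.00287). The MDM call of 0.13 ± 0.042 was lost without MDM library 2 (adjusted p = 0.0689). Ndufa4, named for complex I but a subunit of complex IV, fell in MDM (-0.18 ± 0.046, adjusted p = 0.00171), where it had 77.8, 82.1 and 81.5 CPM, against 89.9, 89.4 and 94.6 in alone libraries. Its relative Ndufa4l2, known as a target of hypoxia signalling, rose in BxTAM (0.47 ± 0.12, adjusted p = 0.00283). In MDM its change of 0.37 ± 0.13 was called, but not without MDM library 2 or alone library 1 (adjusted p = 0.0976 and 0.104). Cox6b1 and Cox7a2 each stand on 2 chromosomes in the annotation, and reads may have been split between the near-identical copies. Cox6b1 was 0.29 in MiaTAM for the copy on chromosome 1 and 0.15 for that on chromosome 2, a call lost without MiaTAM library 1 or alone library 1 (adjusted p = 0.0660 and 0.0710). Cox7a2 was 0.27 for the copy on chromosome 14 and 0.25 for that on chromosome 8, of which the second was not called (adjusted p = 0.0692). It was called without MiaTAM library 2 or alone library 3 (adjusted p = 0.0344 and 0.0193), with no filter (adjusted p = 0.0448) and with upper-quartile factors (adjusted p = 0.0204).

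Complex V was the nuclear complex most often lower in BxTAM. Of 15 tested genes, 9 were lower and 3 higher there, while 6 were higher and 6 lower in MiaTAM and 3 higher and 7 lower in MDM against alone. Over all tested genes, 30.9% were lower and 30.0% higher in BxTAM, 31.4% higher and 33.7% lower in MiaTAM, and 32.0% higher and 33.1% lower in MDM. Atp5b, the catalytic beta subunit and the most abundant nuclear gene of the set at 556 FPKM (chr7:2504695-2511749), had 929, 992 and 942 CPM in MiaTAM, 897, 853 and 849 in BxTAM and 1033, 1121 and 1038 in MDM libraries, against 1066, 1055 and 1057 in alone libraries. Both TAM cultures lay below cells alone without overlap, and the MDM change of 0.0063 was not called. The change was -0.29 ± 0.041 in BxTAM (edgeR adjusted p = 3.54e-06) and -0.15 ± 0.041 in MiaTAM (adjusted p = 0.00304), and the MiaTAM call did not hold with upper-quartile factors (-0.076, adjusted p = 0.105). Atp5d, a subunit of the rotating central stalk (chr7:12426809-12432130), rose most. It had 155, 182 and 156 CPM in MiaTAM, 137, 139 and 124 in BxTAM and 133, 149 and 135 in MDM, against 102, 113 and 109 in alone libraries, with rises of 1.52-fold, 1.23-fold and 1.28-fold (edgeR adjusted p = 3.79e-08, 3.21e-04 and 3.62e-05). Atp5s, a coupling factor rather than a core subunit, rose in BxTAM by 0.34 ± 0.081 (adjusted p = 0.00124). Its MiaTAM call of 0.26 ± 0.082 was lost without MiaTAM library 1 (adjusted p = 0.0527), and its MDM call of 0.19 ± 0.082 without MDM library 2 or 3 or alone library 1 or 2 (adjusted p from 0.102 to 0.157), with DESeq2, limma or no filter (adjusted p = 0.0855, 0.0676 and 0.0602) and with the replicate block (adjusted p = 0.053). Atpif1, the inhibitor of ATP synthase, has a symbol outside the naming rule and was not called, with log2 changes of -0.039 in MiaTAM, -0.10 in BxTAM and -0.10 in MDM against alone (SE 0.14 each).

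Subunit c, which forms the rotor ring in the membrane, is encoded by 3 nuclear genes that give the same mature protein behind different targeting peptides. The balance among them differed between the co-cultures and cells alone. Atp5g1 had 23.4, 27.8 and 23.1 CPM in MiaTAM, 22.3, 18.6 and 20.6 in BxTAM and 21.4, 22.4 and 21.8 in MDM libraries, against 28.1, 31.6 and 30.8 in alone libraries. It was lower in every co-culture library, by 1.22-fold in MiaTAM, 1.47-fold in BxTAM and 1.38-fold in MDM (edgeR adjusted p = 0.00323, 5.22e-06 and 3.58e-05). Atp5g2 went up. It had 109, 121 and 111 CPM in MiaTAM, 104, 104 and 103 in BxTAM and 109, 118 and 109 in MDM, against 101, 94.3 and 91.1 in alone libraries. The rise was 0.25 ± 0.049 in MiaTAM and 0.23 ± 0.048 in MDM (edgeR adjusted p = 1.33e-04 and 3.39e-04). The BxTAM change of 0.12 ± 0.049 (adjusted p = 0.0363) was lost without any 1 of the 3 BxTAM libraries or alone library 2 or 3 (adjusted p from 0.0606 to 0.123) and with limma (adjusted p = 0.0552). Atp5g3 differed among co-cultures, with 114, 126 and 124 CPM in MiaTAM, 101, 97.5 and 87.0 in BxTAM and 96.2, 97.9 and 91.6 in MDM, against 98.5, 109 and 113 in alone libraries. It was higher in MiaTAM by 0.18 ± 0.058 (edgeR adjusted p = 0.00856) and lower in BxTAM and MDM, at -0.17 ± 0.058 and -0.17 ± 0.058 (adjusted p = 0.0167 and 0.0154). Both lower calls were lost with upper-quartile factors (adjusted p = 0.101 and 0.106) and without alone library 2 or 3, the BxTAM one also without BxTAM library 3 and the MDM one without MDM library 3 (adjusted p from 0.0615 to 0.132). As a share of the summed FPKM of the 3 genes, Atp5g1 made up 13.4% ± 0.79 in MiaTAM, 13.3% ± 1.08 in BxTAM and 13.7% ± 0.30 in MDM, against 17.9% ± 0.65 in alone libraries (SD, n = 3). Atp5g2 made up 35.6% ± 0.56 in MiaTAM, 39.0% ± 1.46 in BxTAM and 40.4% ± 0.63 in MDM, against 32.9% ± 2.73 in alone libraries. Alone library 1, at 35.99%, lay within the MiaTAM range of 35.03% to 36.11% for that share. Atp5g3 made up 50.9% ± 1.23 in MiaTAM, 47.7% ± 1.825 in BxTAM and 45.9% ± 0.75 in MDM, against 49.1% ± 2.23 in alone libraries.

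**Figure D3:**
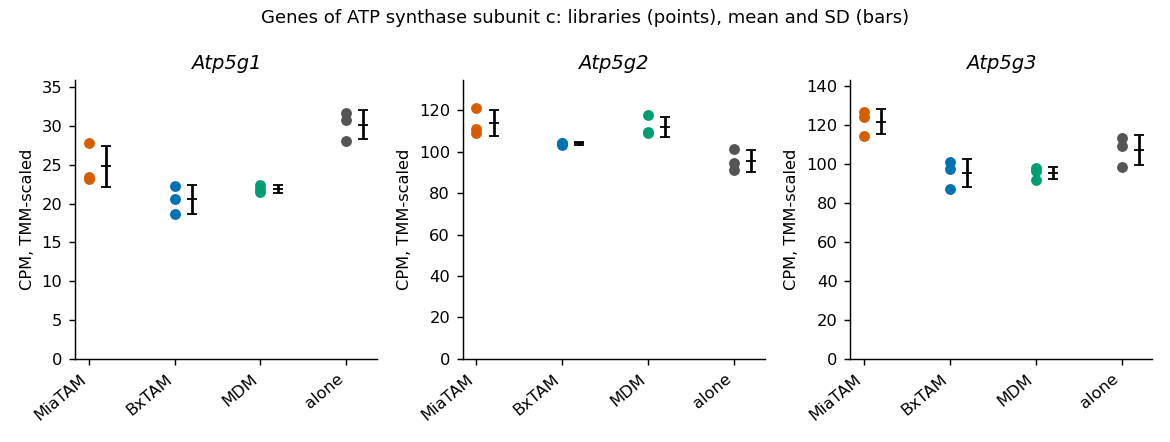
Level of the 3 genes of ATP synthase subunit c in every library, in CPM with axes from 0; points are libraries, and bars give mean and SD of 3. Atp5g1 lies lower in all co-cultures than in cells alone, Atp5g2 lies higher, and Atp5g3 is highest in MiaTAM cultures.

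Because these 3 genes moved apart while encoding one protein, the sequence upstream of each is shown, as 250 bases before the annotated start from RefSeq on build GRCr8. Capitals mark matches to GCGCATGC, the letters searched for nuclear respiratory factor 1 (NRF1), a regulator of respiratory chain genes; CCGGAAG for GABPA and AAGATGGCG for YY1 were also searched, each on both strands. The stretches are chr10:81523346-81523595 for Atp5g1 (RefSeq Atp5mc1), chr7:135678219-135678468 for Atp5g2 (Atp5mc2) and chr3:79220665-79220914 for Atp5g3 (Atp5mc3), all on the minus strand and written 5′ to 3′.
Atp5g1: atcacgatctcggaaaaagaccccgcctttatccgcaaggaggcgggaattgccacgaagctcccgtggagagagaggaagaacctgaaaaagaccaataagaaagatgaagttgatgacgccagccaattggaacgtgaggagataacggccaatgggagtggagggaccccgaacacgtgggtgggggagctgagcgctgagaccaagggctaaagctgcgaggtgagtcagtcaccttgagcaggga
Atp5g2: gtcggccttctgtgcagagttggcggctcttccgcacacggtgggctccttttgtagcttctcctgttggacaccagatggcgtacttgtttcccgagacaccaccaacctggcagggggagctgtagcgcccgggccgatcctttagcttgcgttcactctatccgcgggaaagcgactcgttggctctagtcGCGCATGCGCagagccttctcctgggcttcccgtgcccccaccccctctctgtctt
Atp5g3: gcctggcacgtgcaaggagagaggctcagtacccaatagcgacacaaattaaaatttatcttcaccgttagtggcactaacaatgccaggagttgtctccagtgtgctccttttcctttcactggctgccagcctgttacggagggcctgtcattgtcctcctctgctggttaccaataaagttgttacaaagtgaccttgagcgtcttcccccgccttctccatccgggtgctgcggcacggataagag
In these stretches only Atp5g2 held a match, a palindromic run that gives the NRF1 letters on both strands with first bases 56 and 54 before the start. Over the 69 nuclear genes of the set that matched a RefSeq promoter, of 79 that are not copies, 10 (14.5%) held the NRF1 letters between 250 bases before and 50 after the start, 20 (29.0%) the GABPA letters and 9 (13%) the YY1 letters. Of 19005 protein-coding promoters of that length, 3.23%, 11.24% and 2.29% did. A match is a description of the sequence and does not show binding.

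Between the co-cultures, the nuclear genes were mostly higher in MiaTAM. In MiaTAM against BxTAM, 29 of 82 were higher and 0 lower by edgeR, where 11.0% of all tested genes were higher and 13.3% lower. The median change of the nuclear genes was 0.14. Over all tested genes the median change was 0.0019 and the median absolute change 0.13. At an unadjusted p under 0.05, 44 were higher and 3 lower, and DESeq2 and limma called 0 lower. Without BxTAM library 2 or 3 or MiaTAM library 2 the 29 became 19, 16 and 16, and without MiaTAM library 1 3 genes were lower. In MiaTAM against MDM, 22 were higher and 4 lower, beside 19.8% and 21.1% of all tested genes, with a median of 0.082, and the 4 became 2 without MDM library 1 or MiaTAM library 3. In BxTAM against MDM, 5 were higher and 9 lower, both below the 17.4% and 17.3% of all tested genes, with a median of -0.064. The 5 became 2 or 3 without BxTAM library 1 or 2 or MDM library 2 or 3, and the 9 became 3 without BxTAM library 3. The comparisons share groups, so these counts are not independent of each other.

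**Figure D4:**
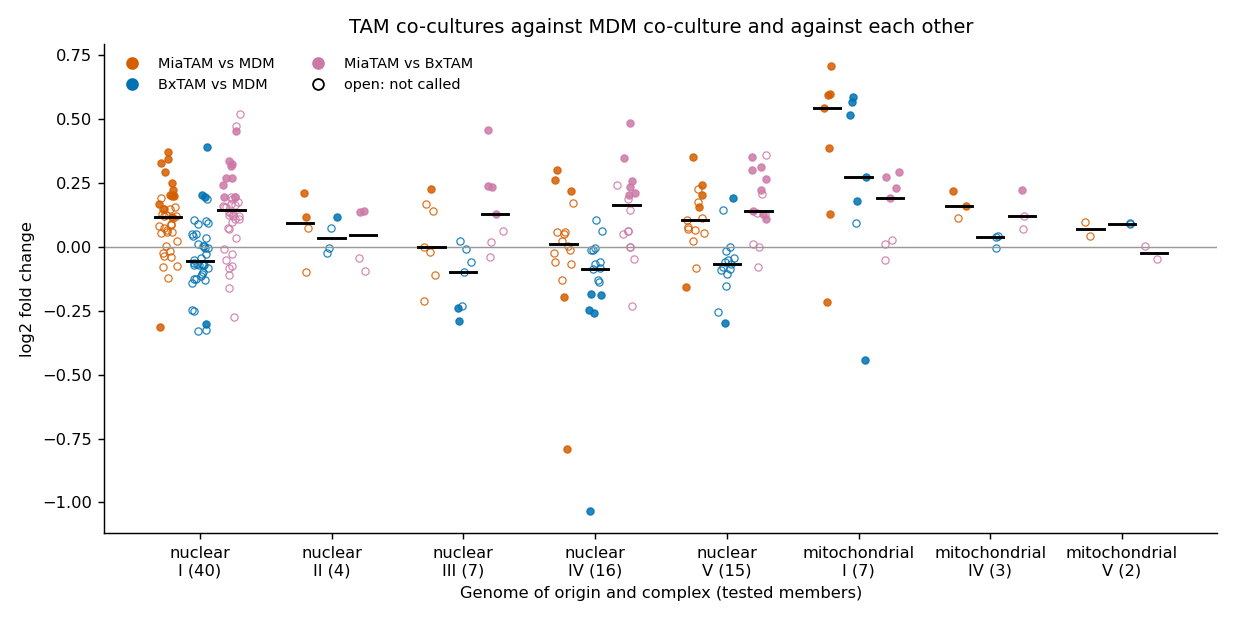
Log2 fold change of every tested member in MiaTAM and BxTAM against MDM cultures and in MiaTAM against BxTAM, by genome of origin and complex, with the number of tested members in brackets; filled points are called, open points are not, and bars are medians. Mitochondrial complex I genes lie above 0 in both TAM cultures against MDM except Mt-nd6, with medians of 0.55 in MiaTAM and 0.27 in BxTAM, and no member was called lower in MiaTAM against BxTAM.

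The rise in MiaTAM over BxTAM included genes of every complex. In complex I it was 9 of 40. Ndufc1 was highest, at 0.45 ± 0.15 (edgeR adjusted p = 0.0289), a call lost without BxTAM library 2 or 3 or MiaTAM library 2 (adjusted p = 0.0591, 0.125 and 0.163) and with DESeq2 (adjusted p = 0.0598). Ndufb10 had 102 ± 3.51 CPM in MiaTAM, against 81.7 ± 3.73 in BxTAM (SD, n = 3), a change of 0.32 ± 0.050 (edgeR adjusted p = 2.00e-04). Ndufb9 rose by 0.27 ± 0.061 (adjusted p = 0.00338). In complex II, Sdhc was 0.14 ± 0.038 (adjusted p = 0.012). In complex III it was 4 of 7, among them Uqcrc1 (0.24 ± 0.046, adjusted p = 0.0012) and the small subunit gene Uqcrq (0.46 ± 0.099, adjusted p = 0.00237), with 34.0, 43.9 and 35.1 CPM in MiaTAM, against 30.9, 28.0 and 23.0 in BxTAM. In complex IV it was 6 of 16. Cox6a1 changed most of these, with 231 ± 19.5 CPM in MiaTAM, against 165 ± 7.64 in BxTAM (SD, n = 3), a difference of 0.49 ± 0.061 (edgeR adjusted p = 2.53e-05). Cox5a, a matrix-side subunit, was 0.35 ± 0.066 (adjusted p = 9.16e-04), and Cox4i1 was 0.21 ± 0.042 (adjusted p = 0.00142). Against cells alone, Cox5a and Uqcrq were called lower in BxTAM and were not called in MiaTAM. With upper-quartile factors both were called higher in MiaTAM against alone (edgeR adjusted p = 0.0324 and 0.0291). The Uqcrq fall in BxTAM was lost with those factors (adjusted p = 0.0577) and without BxTAM library 3 or alone library 2 or 3 (adjusted p from 0.0570 to 0.146). In complex V it was 8 of 15, with Atp5g3 at 0.35 ± 0.058 (adjusted p = 2.75e-04) and Atp5d at 0.30 ± 0.061 (adjusted p = 0.00148). None of the differences named here reached 1.5-fold.

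Nuclear genes in the TAM cultures were also set against MDM, and both comparisons use the same MDM libraries. Atp5b was lower in both, at -0.16 ± 0.041 in MiaTAM (edgeR adjusted p = 0.00427) and -0.30 ± 0.041 in BxTAM (adjusted p = 1.04e-05). Atp5sl was lower, at -0.31 ± 0.087 in MiaTAM and -0.30 ± 0.087 in BxTAM, calls lost without MiaTAM library 1 (adjusted p = 0.0521) and BxTAM library 3 (adjusted p = 0.0573). Cox4i2 was lower, at -0.79 ± 0.30 in MiaTAM and -1.03 ± 0.31 in BxTAM, but the call in MiaTAM was lost without MDM library 1 or 3 or any 1 MiaTAM library (adjusted p from 0.0689 to 0.146), and that in BxTAM without BxTAM library 1 or 3 or MDM library 3 (adjusted p from 0.0567 to 0.0682). With DESeq2 the BxTAM call was lost (adjusted p = 0.0790), and with no filter or the replicate block the MiaTAM call (adjusted p = 0.0729 and 0.0505). Ndufs1 was higher in BxTAM by 0.20 ± 0.040 (adjusted p = 5.22e-04). In MiaTAM, Ndufb9 (0.37 ± 0.061), Atp5g3 (0.35 ± 0.058), Cox6a1 (0.30 ± 0.061), Ndufa4 (0.26 ± 0.046) and Sdhc (0.21 ± 0.038) were higher (edgeR adjusted p from 6.12e-05 to 4.91e-04). Uqcrfs1 was lower in BxTAM than in MDM, at -0.24 ± 0.045 (adjusted p = 3.49e-04), while its MiaTAM difference of -0.11 was called only without MDM library 3 or MiaTAM library 2 (adjusted p = 0.0352 and 0.0489).

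Levels were also summed over the genes of each genome. Nuclear members summed to 6841 ± 178.8 CPM in MiaTAM, 6243 ± 151 in BxTAM and 6585 ± 153 in MDM, against 6501 ± 111 in alone libraries (SD, n = 3). The MiaTAM libraries lay above and the BxTAM libraries below those of cells alone, while MDM libraries overlapped them. On FPKM the MiaTAM libraries still lay above cells alone. The BxTAM libraries then overlapped them, with sums of 6589, 6542 and 6245 FPKM, against 6453, 6730 and 6879 in alone libraries. Mitochondrial members summed to 55970 ± 3803 CPM in MiaTAM, 50170 ± 257 in BxTAM and 48090 ± 2073 in MDM, against 46400 ± 2648 in alone libraries, which is dominated by Mt-co1. Without Mt-co1 the order turned, with 23610 ± 1714 CPM in MiaTAM, 22420 ± 27.9 in BxTAM and 20280 ± 680.4 in MDM, against 26470 ± 2231 in alone libraries, where MiaTAM libraries overlapped cells alone and BxTAM and MDM libraries lay below them. These sums include the high Mt-atp6 of alone library 1, which summed to 28490 CPM, against 24080 and 26850 in the other alone libraries. A sum leaving out only Mt-atp6 was added after the data were seen. It gave 55220 ± 3747 CPM in MiaTAM, 49410 ± 256 in BxTAM and 47380 ± 2047 in MDM, against 44280 ± 1740 in alone libraries. By complex, the mitochondrial complex I sum was 10920 ± 632 CPM in MiaTAM, 10310 ± 47.0 in BxTAM and 8574 ± 277 in MDM, against 12560 ± 701 in alone libraries. The nuclear complex I sum was 1837 ± 47.2 CPM in MiaTAM, 1711 ± 46.1 in BxTAM and 1695 ± 18.1 in MDM, against 1692 ± 35.9 in alone libraries, where MiaTAM libraries lay above cells alone and the other co-cultures overlapped them. For complex IV both parts were higher in MiaTAM and in MDM libraries than in cells alone. The nuclear sum was 1190 ± 48.9 CPM in MiaTAM and 1127 ± 40.95 in MDM, against 1022 ± 39.6 in alone libraries. In BxTAM it was 1044 ± 39.6 CPM and overlapped cells alone. The mitochondrial sum was 42980 ± 3029 CPM in MiaTAM, 37750 ± 225 in BxTAM and 37530 ± 1745 in MDM, against 30100 ± 912. Every co-culture library lay above cells alone for that part. No test was made on sums.

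**Figure D5:**
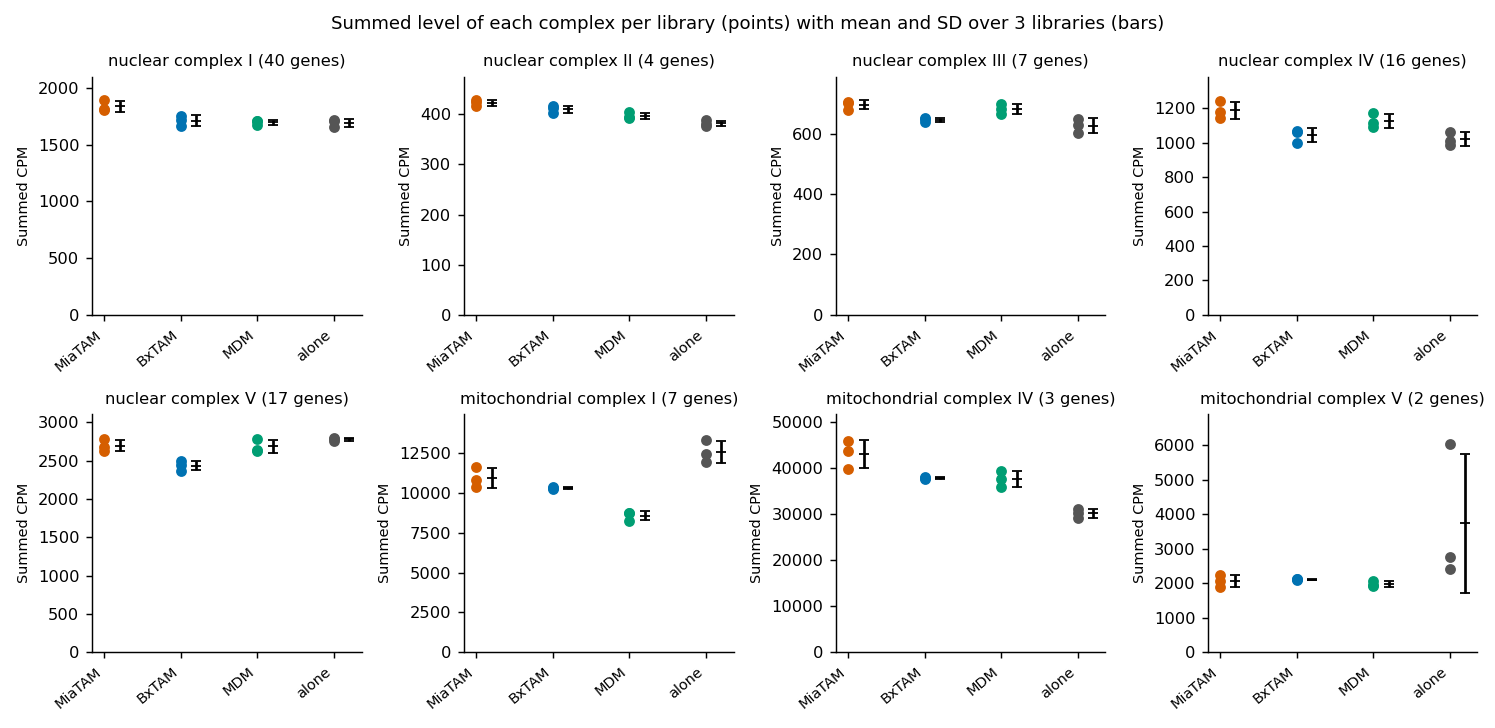
Summed CPM of each complex by genome of origin in every library, with axes from 0; points are libraries, and bars give mean and SD of 3. The mitochondrial complex I sum is highest in cells alone and lowest in MDM cultures, the mitochondrial complex IV sum is lowest in cells alone, and the spread of complex V in cells alone comes from Mt-atp6 in 1 library.

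Genes around the chain were taken from lists of related functions. Their counts stand beside 31.4% higher and 33.7% lower of all tested genes in MiaTAM, 30.0% and 30.9% in BxTAM, and 32.0% and 33.1% in MDM against alone. Of 30 tested genes for protein import, carriers and cristae, 1 was higher and 20 lower in MiaTAM, 1 higher and 25 lower in BxTAM and 2 higher and 19 lower in MDM against alone. Tomm40, the channel of the outer membrane translocase, fell, with log2 changes of -0.61 ± 0.058 in MiaTAM, -1.05 ± 0.060 in BxTAM and -1.02 ± 0.060 in MDM (edgeR adjusted p = 1.21e-08, 5.82e-12 and 6.66e-12). Immt, which shapes cristae, fell, with log2 changes of -0.54 ± 0.040, -0.53 ± 0.040 and -0.73 ± 0.040 in MiaTAM, BxTAM and MDM (adjusted p = 3.18e-10, 4.99e-10 and 2.68e-12). Of 29 factors for mitochondrial DNA and RNA, 1 was higher and 15 lower in MiaTAM, 1 higher and 18 lower in BxTAM and 3 higher and 19 lower in MDM. Among them the nuclease gene Mgme1 fell, with log2 changes of -1.502 ± 0.12, -1.258 ± 0.11 and -1.268 ± 0.11 in MiaTAM, BxTAM and MDM (adjusted p = 5.44e-10, 5.80e-09 and 3.90e-09). Lrpprc, which stabilises mitochondrial messengers, fell, with log2 changes of -0.34 ± 0.041, -0.32 ± 0.041 and -0.50 ± 0.041 (adjusted p = 4.25e-07, 9.07e-07 and 1.26e-09), and Fastk, which is known to act on Mt-nd6 RNA, rose by 0.46 ± 0.057, 0.45 ± 0.057 and 0.76 ± 0.056 (adjusted p = 6.05e-07, 7.78e-07 and 2.81e-10), in that order.

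Of 38 assembly factors outside the naming rule, 6 were higher and 14 lower in MiaTAM, 4 higher and 13 lower in BxTAM and 6 higher and 14 lower in MDM. Bcs1l, which inserts the Rieske protein Uqcrfs1 into complex III, fell, with log2 changes of -0.70 ± 0.095 in MiaTAM, -1.01 ± 0.099 in BxTAM and -1.29 ± 0.10 in MDM (edgeR adjusted p = 2.05e-06, 2.21e-08 and 6.75e-10), while Uqcrfs1 itself rose. Of 20 electron carriers and genes of ubiquinone synthesis, 6 were higher and 6 lower in MiaTAM, 4 higher and 6 lower in BxTAM and 4 higher and 7 lower in MDM. Dhodh, which feeds electrons from pyrimidine synthesis to ubiquinone, fell, with log2 changes of -1.20 ± 0.070 in MiaTAM, -1.28 ± 0.071 in BxTAM and -1.61 ± 0.072 in MDM (adjusted p = 6.14e-12, 2.98e-12 and 1.27e-13). Of 24 genes of pyruvate entry and the TCA cycle, 7 were higher and 10 lower in MiaTAM, 4 higher and 9 lower in BxTAM and 6 higher and 11 lower in MDM. Pyruvate carboxylase, Pc, rose by 0.61 ± 0.049, 0.29 ± 0.049 and 0.92 ± 0.049 in MiaTAM, BxTAM and MDM (adjusted p = 8.83e-10, 4.14e-05 and 1.31e-12). Of 9 regulators of mitochondrial biogenesis, 2 were higher and 4 lower in MiaTAM, 2 higher and 4 lower in BxTAM and 3 higher and 3 lower in MDM. The coactivator Ppargc1a had 5.32 CPM in MiaTAM, 5.17 in BxTAM and 6.10 in MDM, against 2.09 in alone libraries, a rise of 1.35 ± 0.17, 1.31 ± 0.17 and 1.53 ± 0.16 (adjusted p = 6.46e-07, 1.20e-06 and 6.61e-08). Nrf1, whose protein binds the letters searched above, fell, with log2 changes of -0.53 ± 0.056, -0.59 ± 0.056 and -0.36 ± 0.055 in the same order (adjusted p = 5.93e-08, 1.55e-08 and 8.05e-06).

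Of the genes matched by name but left out, Ndufa1, Ndufb4l1, Cox6b2, Cox6c1, Cox8b and Cox8c had 0 counts in every library, so no level could be set. Cox6a2, the muscle form of Cox6a, had 0 to 7 counts per library, Cox7b2 and a further Uqcr10 gene on chromosome 15 had 0 to 2, and 1 of the 2 Atp5f1 genes had 0 or 1. The other Atp5f1 gene had 3 to 7 counts per library and Atp5hl1 1 to 4, and both were in the set but not tested.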

How the data were processed

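The kit used for the 12 libraries selects mRNA and keeps strand, per the labels' protocols. The table deposited by the authors holds raw read counts and FPKM values per gene, per the file headers. CASAVA, HISAT2 and StringTie 1.3.0 and the build Rnor_6.0 are named in the submitters' processing notes. For the counting tool, its strand setting and the annotation release, the labels and headers give nothing.

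From the deposited counts, 12360 of 30957 genes passed filterByExpr (minimum count 10) and were fitted over all 4 groups with edgeR 4.0.16 in R 4.3.3 by the quasi-likelihood test, with TMM factors of 0.98 to 1.01 and Benjamini-Hochberg adjustment over these genes in each of 6 comparisons. CPM uses the same factors, and summed levels and shares were not tested. The scripts were tested on simulated data. No libraries were duplicates: replicate pairs differed by 2.34 to 7.26 times the sampling variance. Alternatives were DESeq2 1.42.0, limma 3.58.1 on log2(FPKM + 1), other factors, no filter, 2 groups alone, a replicate block and each library left out.

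Members and lists were chosen with earlier results of these data known. Named genes are all mitochondrial members and, per complex, the gene with the highest FPKM, those with the largest non-overlapping called changes in each comparison, and a fixed set (complex IV isoforms, subunit c, complex II and the ATP synthase inhibitor); the others named were chosen after their values were seen. The libraries of another kind of induced macrophage in the study's design are not analysed here.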

Additional observations from a re-analysis of the deposited data

Results flagged for a closer look

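A few nuclear genes had called changes in opposite directions in different co-cultures, and the difference between those changes was itself called by edgeR. The contrasts share the comparison group, so the difference equals the direct comparison of the co-cultures, whose edgeR adjusted p is given. Ndufa8, an accessory subunit of complex I, was 0.18 in MiaTAM and -0.15 in MDM against alone, a difference of 0.33 (adjusted p = 0.000185). Cox6a1 was 0.30 in MiaTAM and -0.18 in BxTAM against MDM, a difference of 0.49 (adjusted p = 2.53e-05). Atp5g3 was 0.18 in MiaTAM against alone, against -0.17 in BxTAM (difference 0.35, adjusted p = 0.000275) and -0.17 in MDM (difference 0.35, adjusted p = 6.12e-05). Atp5h, of the peripheral stalk of ATP synthase, was 0.11 in MiaTAM and -0.11 in BxTAM against alone, a difference of 0.22 (adjusted p = 0.00132). The differences of Ndufa8 and Atp5h were called under all 14 alternatives, while their changes against alone were not: Ndufa8 was lost in 1 in MiaTAM and 5 in MDM, and Atp5h in 4 in MiaTAM and 6 in BxTAM. The BxTAM change of Cox6a1 against MDM was lost with limma (adjusted p = 0.0700) and without BxTAM library 2 or 3 or MDM library 2 (adjusted p = 0.0690, 0.122 and 0.135). Both lower changes of Atp5g3 were lost with upper-quartile factors and without single libraries.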

How the results depend on the processing

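Of 4283 alternative values for 306 changes of named genes, 4025 kept their side of the threshold, 61 gained a call and 0 called changes reversed. The other 197 lost a call or had no adjusted p. DESeq2 gave no adjusted p for Cox4i2 in MiaTAM against MDM or against BxTAM, so these are not all lost calls. Of the 4025, 97 changed sign, none of them called. Of 171 called changes, 117 were kept under every alternative. With upper-quartile factors, 7 nuclear genes were lower in MiaTAM and 12 in BxTAM against alone, and 0 mitochondrial genes lower in MiaTAM against MDM. With limma, 1 mitochondrial gene was higher in MiaTAM against BxTAM and 0 lower in MiaTAM against MDM. With the 2 groups alone, 8 mitochondrial genes were higher in BxTAM against MDM. With no filter, 1 nuclear gene was lower in MiaTAM against BxTAM. The causes were not tested. Summed mitochondrial levels depended on scale: on FPKM the log2 differences against alone were 0.069 in MiaTAM, -0.048 in BxTAM and -0.14 in MDM, and without Mt-co1, an alternative added after seeing the data, -0.17, -0.24 and -0.38, with 0.14 in BxTAM against MDM. The nuclear sum in MiaTAM against MDM was 0.094 on FPKM.

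With each library left out in turn, nuclear genes higher numbered 15 to 30 in MDM against alone, 16 to 32 in MiaTAM against BxTAM and 2 to 5 in BxTAM against MDM, and nuclear genes lower 13 to 20 in BxTAM against alone, 3 to 9 in BxTAM against MDM, 2 to 5 in MiaTAM against MDM and 0 to 3 in MiaTAM against BxTAM. Mitochondrial genes higher numbered 2 to 7 in MiaTAM against BxTAM, and lower 0 to 1 in MiaTAM against MDM.

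Deviations of same-numbered libraries from their group means, in log2 CPM over tested genes, correlated at -0.138 to 0.139. These values gave no sign of pairing by number. With 3 libraries per group they cannot exclude it, and the labels do not state it. With the replicate block, nuclear genes higher and lower numbered 37 and 11 in MiaTAM, 15 and 21 in BxTAM and 25 and 16 in MDM against alone, 21 and 3 in MiaTAM and 5 and 10 in BxTAM against MDM, and 27 and 0 in MiaTAM against BxTAM; mitochondrial counts did not move.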
